A study of Mus musculus with 8 samples.

Results

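The genes of MHC class I antigen presentation were examined in mouse bone marrow-derived macrophages (BMDMs) after knockdown of MAARS, a nuclear long noncoding RNA of macrophages annotated as Gm14461. The set held 33 genes of the 49315 in the count table, chosen by symbol as class I and class I-like molecules, their peptide loading partners, the immunoproteasome, and the factors that transcribe class I genes. All 33 members had enough reads to be among the 13051 genes tested. After MAARS knockdown 24 members (72.7%) were called lower at an adjusted p under 0.05 in edgeR's quasi-likelihood test, beside 24% of all genes tested. The 1 member called higher made up 3.03% of the set, beside 21.3% of all genes tested, and 8 members did not pass. The members were chosen with earlier results of these data known, so these shares only describe the set.

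Bone marrow of C57BL/6 mice, with no genotype beyond the strain given in the labels, was grown into macrophages in medium with M-CSF at 10 ng/ml. The cells were transfected with 25 nM of a gapmeR, a short antisense oligonucleotide whose DNA core lets RNase H cut the paired RNA. The control group (control gapmeR, replicates 2, 5, 6, and 7) received a negative control gapmeR and the knockdown group (MAARS gapmeR, replicates 9, 11, 13, and 15) received gapmeR against MAARS, so both groups went through transfection and neither was left untreated. The labels do not say that the libraries came from separate animals or cultures, and p-values then measure the spread between these libraries only. Total RNA was depleted of ribosomal RNA and sequenced as paired reads. The labels do not say which MAARS gapmeR, or how many, each library received, and with these groups effects of the oligonucleotide itself and of the loss of its target cannot be told apart.

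MHC class I molecules carry peptides made inside a cell to its surface, where CD8 T cells read them. Proteins are cut by the proteasome, the peptides are pumped into the endoplasmic reticulum by the TAP transporter, trimmed there, and loaded with the help of tapasin onto a heavy chain paired with beta-2-microglobulin. In macrophages interferons raise nearly every step together: STAT and IRF factors bind interferon-response elements, and NLRC5 acts with the RFX complex on the conserved S-X-Y module of class I promoters.

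Short promoter stretches of members that fell are shown first. Those of the first and second sets carry letters that resemble sites of interferon-response factors, and those of the first set also letters like sites of NF-kappaB. Each stretch comes from RefSeq promoter windows on GRCm38.p6, from 250 bases before to 50 bases after the start, and reads 5′ to 3′ along the gene's own strand. The first set shows 6 heavy chain genes that carried a similar block, with kappaB-like GGGANNNCC and the interferon-type letters GAANNGAAA (read here as its reverse complement, TTTCNNTTC) in capitals. In H2-Q4 the kappaB-like capitals cover a pair of overlapping matches on opposite strands. They are shown because the kappaB-like and interferon-type letters stood within 59 bases of each other in genes whose fall ranged from 44.5% for H2-D1 to 87.6% for H2-Q7.
H2-K1 at chr17:34000419-34000477, minus strand: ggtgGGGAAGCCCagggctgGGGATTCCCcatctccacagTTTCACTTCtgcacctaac
H2-D1 at chr17:35262904-35262962, plus strand: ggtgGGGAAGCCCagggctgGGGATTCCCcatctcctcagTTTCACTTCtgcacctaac
H2-Q4 at chr17:35379424-35379482, plus strand: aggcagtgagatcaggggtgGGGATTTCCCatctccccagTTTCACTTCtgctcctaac
H2-Q6 at chr17:35424658-35424716, plus strand: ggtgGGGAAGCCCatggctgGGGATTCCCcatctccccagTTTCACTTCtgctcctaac
H2-Q7 at chr17:35439002-35439060, plus strand: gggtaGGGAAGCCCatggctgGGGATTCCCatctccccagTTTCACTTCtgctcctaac
H2-Q10 at chr17:35469894-35469952, plus strand: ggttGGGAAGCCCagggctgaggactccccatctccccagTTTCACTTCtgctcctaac

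The second set holds the members with the other spacing of the interferon-type letters, GAAANNGAA or its reverse complement TTCNNTTTC, in capitals. It is shown because it holds light chain, class Ib, trimming, and PA28 genes, of different families and chromosomes. In Psme1 the capitals also cover an overlapping GAANNGAAA match, and in Erap1 a pair of GAAANNGAA matches overlap across the start.
B2m at chr2:122147523-122147581, plus strand: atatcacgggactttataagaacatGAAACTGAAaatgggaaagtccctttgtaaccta
H2-T22 at chr17:36042899-36042957, minus strand: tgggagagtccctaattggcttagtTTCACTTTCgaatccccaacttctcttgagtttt
H2-T23 at chr17:36032791-36032849, minus strand: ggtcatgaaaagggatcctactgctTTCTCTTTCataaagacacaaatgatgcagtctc
Erap1 at chr13:74639819-74639883, plus strand: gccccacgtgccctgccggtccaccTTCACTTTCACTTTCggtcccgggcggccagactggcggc
Psme1 at chr14:55578479-55578537, plus strand: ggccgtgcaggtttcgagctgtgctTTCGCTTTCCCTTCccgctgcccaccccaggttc

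The third sequence is the shared promoter of Tap1 and Psmb9, whose RefSeq starts lie 225 bases apart and point away from each other. In GENCODE M21 the genes overlap at their starts, Psmb9 reaching 34187764 and Tap1 starting at 34187553. It is shown because a transporter gene and an immunoproteasome gene that both fell are read from it in opposite directions. Capitals mark a Y box match, CCAAT, and a CRE-like X2 match, TGACG.
Tap1 at chr17:34187306-34187605, plus strand: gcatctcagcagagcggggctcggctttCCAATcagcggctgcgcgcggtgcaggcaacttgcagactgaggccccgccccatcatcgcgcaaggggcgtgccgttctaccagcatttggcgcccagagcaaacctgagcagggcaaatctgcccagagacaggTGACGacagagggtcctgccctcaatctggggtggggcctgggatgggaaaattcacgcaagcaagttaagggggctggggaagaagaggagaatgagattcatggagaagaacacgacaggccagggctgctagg

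The libraries held 19287279 to 20567123 counts in the control group and 20839671 to 24541205 in the MAARS gapmeR group, every MAARS gapmeR library being the deeper. Levels are given as CPM, counts per 1000000 counts of a library after scaling by TMM factors. Gm14461 fell from 238 to 296 counts per control library to 135 to 163 per MAARS gapmeR library, a log2 fold change of -0.95 (SE 0.112, adjusted p = 5.8e-05, edgeR quasi-likelihood test). The first principal component took 65% of the variance and separated the groups. All 9 macrophage markers were detected, with summed levels of 14304.2 to 17539.7 CPM in controls and 17309.8 to 20530.7 CPM after knockdown, 3 of them lower and 5 higher. Summed markers of other cells were low for conventional dendritic cells (1.18 to 2.7 and 1.43 to 1.89 CPM), B cells (1.38 to 2.46 and 1.37 to 1.91 CPM), and NK cells (0 to 0.147 and 0 to 0.217 CPM). The 6 T cell markers summed to 66.2 to 85.6 CPM in controls and 40.9 to 51.4 CPM after knockdown, nearly all of it Cd4, while Cd3g was at 0 in every library. Neutrophil markers summed to 82.5 to 237.1 and 87.2 to 138.8 CPM, stromal markers to 458.3 to 1044.6 and 717.6 to 1233.4 CPM, erythroid markers to 0 to 0.196 and 0.0796 to 0.347 CPM, and plasmacytoid dendritic cell markers to 64.6 to 91.6 and 98 to 114.2 CPM, nearly all of it Tcf4. The part of these shifts in the members' changes was not tested.

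Falls of at least 1 on the log2 scale were called for 17 members, beside 3.14% of all genes, and rises of that size for 0 members, beside 2.23%. The 25 members with every MAARS gapmeR library below every control library compare with 22.8% of all genes, and the 3 with every one above compare with 19.3%. The median log2 fold change was -1.07 over the members, with a range of -3.01 to 0.70, and 0.01 over all genes tested. RNA from whole cultures cannot tell fewer cells that express a gene from less of its RNA in each cell.

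**Figure D1:**
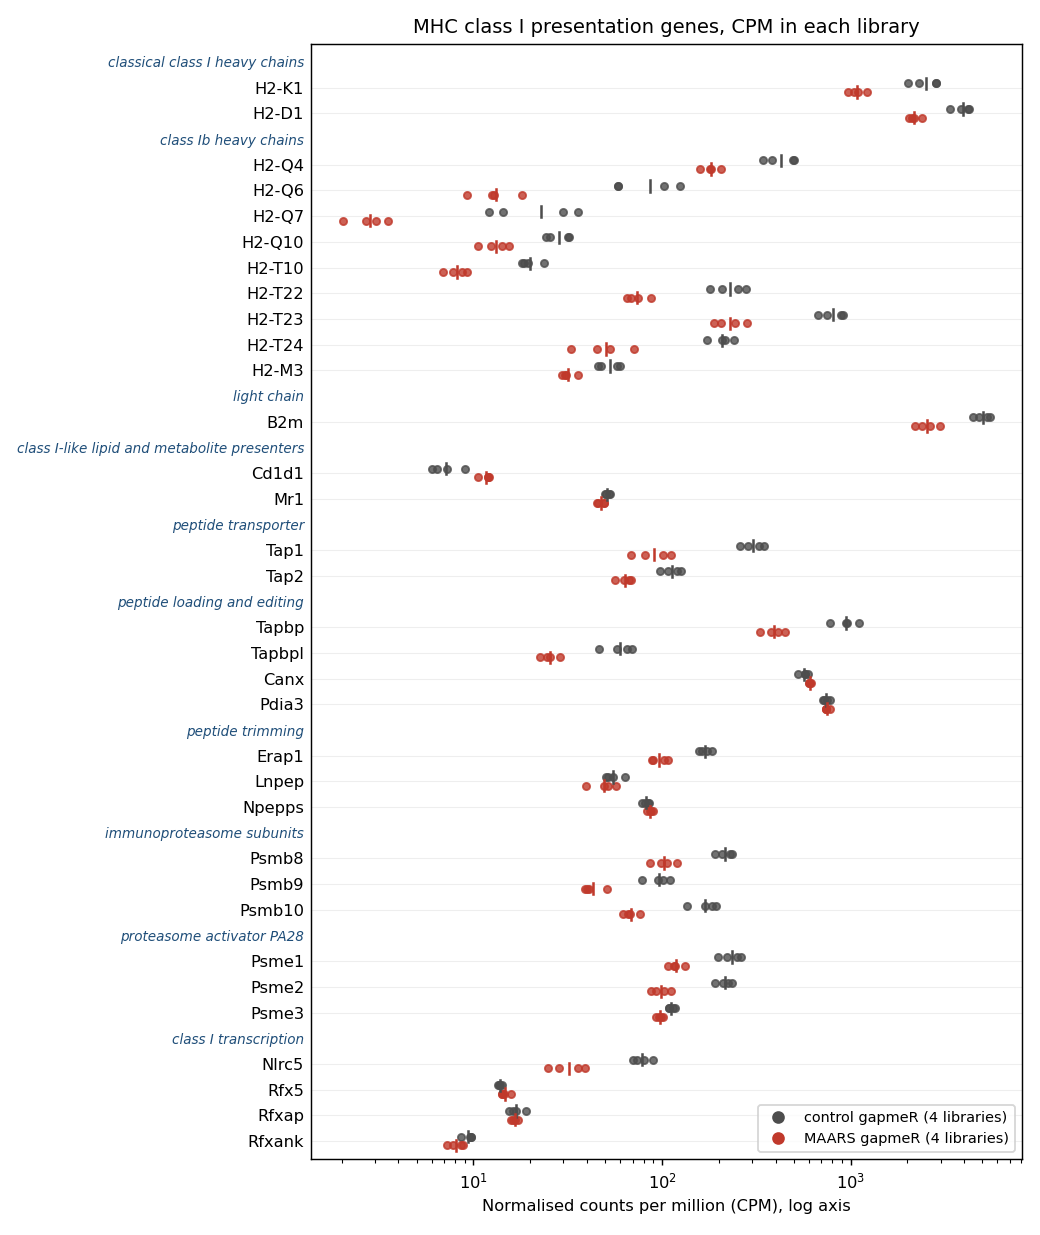
Normalised counts per 1000000 counts of a library (CPM, log axis) of the 33 members in each of the 4 control gapmeR libraries (grey) and 4 MAARS gapmeR libraries (red), grouped by role; short vertical lines are group means. The red points lie left of the grey ones without overlap in 25 members, and Cd1d1 is the called member with the opposite order.

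The classical heavy chains H2-K1 and H2-D1, which present peptides to CD8 T cells, both fell. H2-K1 (ENSMUSG00000061232, GRCm38 chromosome 17, 33996017 to 34000347, minus strand) was counted at 2025.3, 2310.9, 2848.2, and 2836.0 CPM in the control libraries and at 970.1, 1091.7, 1222.6, and 1047.3 CPM in the MAARS gapmeR libraries, each in the order of replicates given above, which holds throughout. The groups did not overlap, and H2-K1 fell by 1.21 on the log2 scale (SE 0.11, adjusted p = 1.1e-05, edgeR), which is 56.8%. H2-D1 (ENSMUSG00000073411, chromosome 17, 35262730 to 35267499, plus strand) stood at 3370.1, 3857.8, 4259.1, and 4216.6 CPM in controls and at 2037.5, 2167.4, 2389.0, and 2114.1 CPM after knockdown. Its lowest control library was again replicate 2 and its lowest knockdown library replicate 9, and the fall was 44.5% (log2 fold change -0.85, SE 0.0804, adjusted p = 1.33e-05, edgeR).

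H2-K1 fell further than H2-D1. The log2 ratio of H2-K1 to H2-D1 CPM was -0.73, -0.74, -0.58, and -0.57 in controls and -1.07, -0.99, -0.97, and -1.01 after knockdown. The groups of ratios did not overlap and differed by -0.35 (exact permutation test over the 8 libraries, two-sided p = 0.0286, adjusted p = 0.0286 over 5 pairs). This pair and the 4 other pairs of partner genes below were chosen after the values were seen, and 0.0286 is the smallest p that 4 libraries against 4 can give.

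All 9 class Ib heavy chain genes, the less polymorphic relatives of H2-K1 and H2-D1, were lower, with a median log2 fold change of -1.64. The steepest falls were those of H2-Q6 and H2-Q7, genes of the Qa-2 group, whose proteins are tethered to the membrane by a lipid anchor. H2-Q7 (ENSMUSG00000060550, chromosome 17, 35439155 to 35443773, plus strand) was counted at 14.3, 12.1, 29.7, and 35.7 CPM in controls and at 2.03, 3.06, 3.54, and 2.69 CPM after knockdown, a log2 fold change of -3.01 (SE 0.352, adjusted p = 5.28e-05, edgeR). H2-Q6 stood at 58.5, 58.4, 101.9, and 125.0 CPM in controls and at 9.27, 12.8, 18.1, and 12.5 CPM after knockdown, a log2 fold change of -2.71 (SE 0.269, adjusted p = 1.79e-05, edgeR). In both genes control replicates 2 and 5 were well below control replicates 6 and 7, yet above every knockdown library. H2-Q4 went from 430.0 ± 81 to 181.3 ± 19.4 CPM (mean ± SD over 4 libraries a group, as for all such values), with a log2 fold change of -1.25 (SE 0.123, adjusted p = 1.68e-05, edgeR). H2-Q10, a secreted class I molecule best known from liver, was near 28.4 ± 4.13 CPM in controls and 13.1 ± 2.09 CPM after knockdown, a log2 fold change of -1.11 (SE 0.126, adjusted p = 4.35e-05, edgeR).

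The H2-T genes formed the next group. H2-T23 (ENSMUSG00000067212, chromosome 17, 36029773 to 36032855, minus strand) encodes Qa-1, which shows class I leader peptides to the NKG2A receptor of NK cells. It was counted at 669.4, 753.0, 914.6, and 890.6 CPM in controls and at 187.8, 242.6, 281.9, and 206.1 CPM after knockdown. The highest knockdown library was at less than the lowest control library, and the fall was 71.5% (log2 fold change -1.81, SE 0.131, adjusted p = 5.27e-06, edgeR). H2-T24 stood at 173.1, 207.1, 239.9, and 214.7 CPM in controls and at 32.9, 53.3, 71.4, and 45 CPM after knockdown, a log2 fold change of -2.04 (SE 0.188, adjusted p = 1.13e-05, edgeR). H2-T22, a ligand of some gamma-delta T cells, and its close relative H2-T10, which GENCODE M21 types as a polymorphic pseudogene in the reference strain, fell by 1.64 and 1.30 on the log2 scale, from 229.4 ± 44.6 and 20 ± 2.5 CPM to 73.8 ± 9.74 and 8.13 ± 1.04 CPM (SE 0.132 and 0.114, adjusted p = 6.49e-06 and 8.91e-06, edgeR). H2-M3, which presents formylated bacterial peptides, had the smallest fall of the class Ib list, from 52.9 ± 7.31 to 31.7 ± 2.81 CPM (log2 fold change -0.74, SE 0.0965, adjusted p = 0.000116, edgeR).

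Several heavy chain genes share sequence, and the sources used here do not give how reads that map to several places were treated. Of all 100-base stretches of their transcripts, a share was found also in another gene in the same sense. It was 12% for H2-Q7, 10.8% for H2-Q6, 8.86% for H2-T22, 8.01% for H2-Q10, and 7.06% for H2-T10. It was 0.957% for H2-K1, 3.59% for H2-D1, 2.16% for H2-Q4, and 0 for H2-T24 and H2-M3. With either sense counted, the share was 31.5% for H2-T22, 28.1% for H2-T10, 14.1% for H2-Q4, and 13% for H2-Q6. The stretches were matched exactly, so reads that differ by a few bases are not covered. The split of reads among the H2-Q genes and between H2-T10 and H2-T22 is uncertain to at least that extent. Sums are therefore given as a description with no test. The 4 H2-Q members summed to 567.3 ± 128 CPM in controls and 210.4 ± 25.6 CPM after knockdown, 62.9% lower, and the 4 H2-T members to 1265.0 ± 188 and 362.1 ± 67.6 CPM, 71.4% lower. H2-K1 and H2-D1 together went from 6431.0 ± 813 to 3260.0 ± 256 CPM, 49.3% lower. They made up 76.6% to 78.3% of all heavy chain CPM in the control libraries and 83.2% to 85.6% in the MAARS gapmeR libraries.

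The light chain B2m, with which every class I heavy chain pairs, had the highest level of the set per length of exon, 5831.3 CPM per kb in controls against 1522.3 for H2-D1 and 852.7 for H2-K1. B2m (ENSMUSG00000060802, chromosome 2, 122147686 to 122153083, plus strand) was counted at 4452.9, 4796.7, 5495.3, and 5314.9 CPM in controls and at 2192.5, 2639.4, 2970.9, and 2386.2 CPM after knockdown. The groups were well apart, and the fall was 49.2% (log2 fold change -0.98, SE 0.0973, adjusted p = 1.8e-05, edgeR). No 100-base stretch of B2m was found in another gene.

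Of the class I-like presenters, Cd1d1 was higher and Mr1 did not pass the test. Cd1d1, which shows lipids to NKT cells, was the only member called higher. It was counted at 6.04, 9.02, 7.25, and 6.43 CPM in controls and at 12.1, 11.9, 10.6, and 12 CPM after knockdown, a log2 fold change of 0.70 (SE 0.122, adjusted p = 0.000835, edgeR). Every knockdown library was above every control library, at levels that were the lowest of the set per length apart from Rfx5 and Rfxank in controls, and 10.5% of its 100-base stretches also occur in Cd1d2, a neighbor with at most 1 count in any library. Mr1, which shows vitamin metabolites to MAIT cells, stood at 52.9, 50.3, 52.3, and 50 CPM in controls and at 49, 45, 49.3, and 45.5 CPM after knockdown. Its groups did not overlap but the difference did not pass the test (log2 fold change -0.12, SE 0.0504, adjusted p = 0.0644, edgeR).

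**Figure D2:**
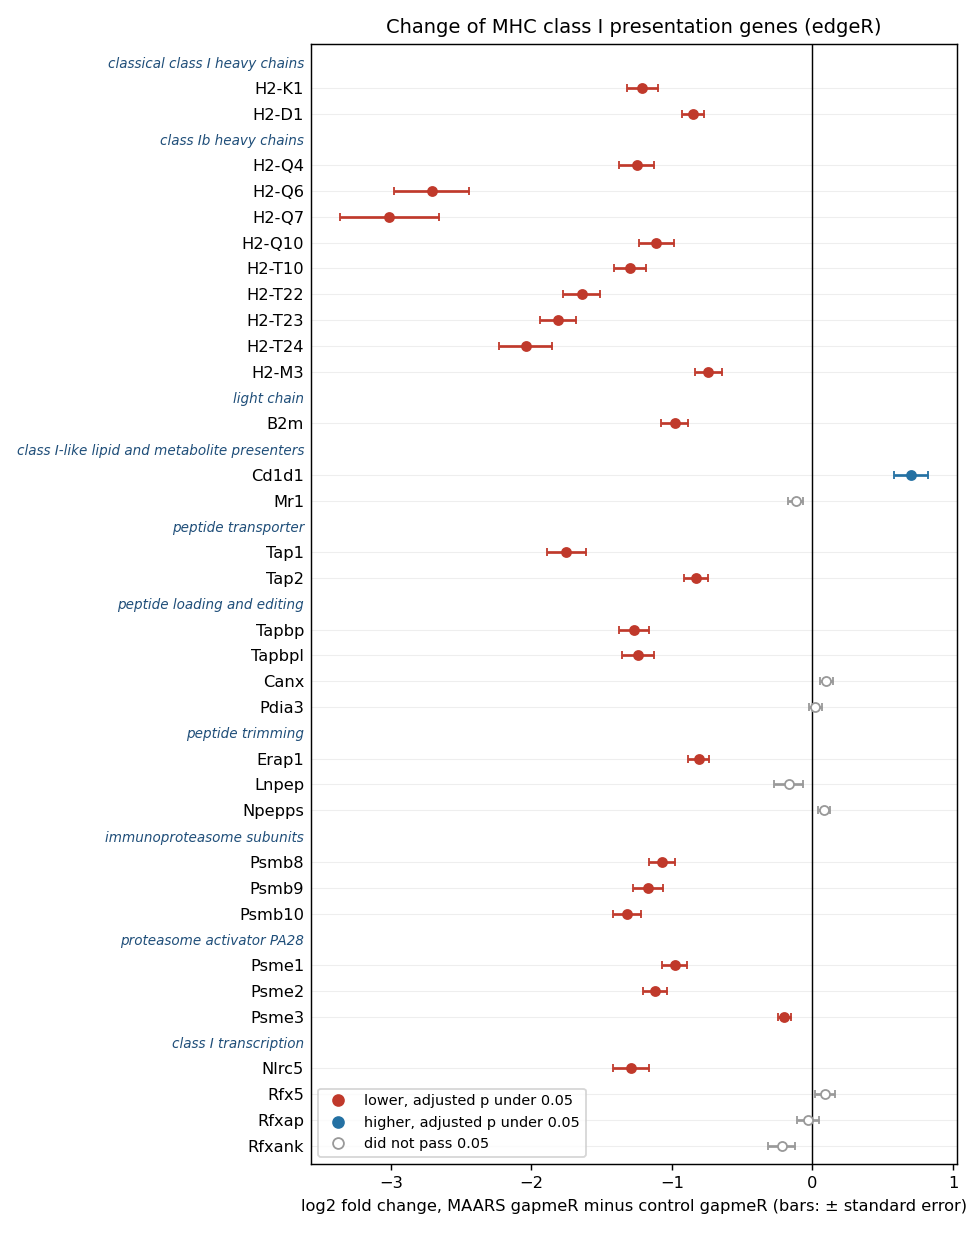
Log2 fold change of each member, MAARS gapmeR minus control gapmeR, with bars of ± 1 standard error from the edgeR fit (4 libraries a group), grouped by role. Filled red points are the 24 members called lower, the filled blue point is Cd1d1, and open points are the 8 members that did not pass.

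Both subunits of the peptide transporter fell, to different degrees. Tap1 (ENSMUSG00000037321, chromosome 17, 34187553 to 34197225, plus strand) was counted at 260.2, 286.4, 345.7, and 328.0 CPM in controls and at 68.7, 101.1, 111.1, and 81.2 CPM after knockdown, a fall of 70.3% (log2 fold change -1.75, SE 0.139, adjusted p = 6.07e-06, edgeR). Tap2 stood at 97.1, 107.3, 126.0, and 120.6 CPM in controls and at 56, 68.1, 66.7, and 63.2 CPM after knockdown, a fall of 43.7% (log2 fold change -0.83, SE 0.0855, adjusted p = 2.23e-05, edgeR). Neither gene's groups overlapped. The log2 ratio of Tap1 to Tap2 held between 1.42 and 1.46 over the control libraries and between 0.29 and 0.74 over the knockdown libraries, a difference of -0.94 (exact permutation test, two-sided p = 0.0286, adjusted p = 0.0286 over 5 pairs). As this pair was chosen after the values were seen, the p is a description only.

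Of the 4 loading and editing members, Tapbp and Tapbpl fell, and Canx and Pdia3 did not pass the test. Tapbp, or tapasin, which bridges TAP and the empty heavy chain, was counted at 778.8, 951.1, 1106.3, and 960.0 CPM in controls and at 332.9, 413.8, 447.6, and 379.7 CPM after knockdown (log2 fold change -1.27, SE 0.109, adjusted p = 8.05e-06, edgeR). Tapbpl, the tapasin-related editor that works outside the complex, went from 59.7 ± 9.98 to 25.4 ± 2.7 CPM (log2 fold change -1.24, SE 0.116, adjusted p = 1.3e-05, edgeR). Both sets of libraries were apart without overlap. Canx, the lectin chaperone calnexin, stood at 526.5 to 596.3 CPM in controls and 598.7 to 616.4 CPM after knockdown (log2 fold change 0.10, SE 0.0476, adjusted p = 0.123, edgeR). Pdia3, the disulfide isomerase ERp57, stood at 710.5 to 773.9 and 737.9 to 773.3 CPM (log2 fold change 0.02, SE 0.0452, adjusted p = 0.75, edgeR). Canx and Pdia3 serve the folding of many glycoproteins besides class I.

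Among the peptide trimming enzymes, Erap1, the aminopeptidase of the endoplasmic reticulum, was counted at 157.2, 162.9, 183.7, and 174.0 CPM in controls and at 88.5, 107.1, 102.7, and 89.5 CPM after knockdown. Its groups did not overlap, and it fell by 42.8% (log2 fold change -0.81, SE 0.0723, adjusted p = 1.03e-05, edgeR). Lnpep, an endosomal aminopeptidase linked to cross-presentation, stood at 50.6 to 63.5 and 39.3 to 57.1 CPM (log2 fold change -0.17, SE 0.106, adjusted p = 0.221, edgeR). Npepps, a cytosolic aminopeptidase, stood at 78.4 to 84.8 and 83.6 to 89.1 CPM (log2 fold change 0.08, SE 0.0437, adjusted p = 0.155, edgeR). Both overlapped between groups.

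The 3 immunoproteasome subunits, which replace the standard catalytic subunits and favor peptides that fit class I, all fell by more than 1 on the log2 scale. Psmb8 (ENSMUSG00000024338, chromosome 17, 34197721 to 34201454, plus strand) was counted at 191.0, 208.0, 234.3, and 230.4 CPM in controls and at 86.1, 106.4, 119.7, and 99.3 CPM after knockdown, a log2 fold change of -1.07 (SE 0.0951, adjusted p = 9.54e-06, edgeR). Psmb9 stood at 78.8, 95.3, 110.9, and 100.8 CPM in controls and at 39, 41.1, 51, and 40.2 CPM after knockdown, a log2 fold change of -1.17 (SE 0.107, adjusted p = 1.12e-05, edgeR). Psmb10, the subunit encoded apart from the other two on chromosome 8, stood at 136.0, 168.2, 192.2, and 183.3 CPM in controls and at 62.2, 67.5, 76.3, and 66.4 CPM after knockdown, a log2 fold change of -1.32 (SE 0.0997, adjusted p = 5.27e-06, edgeR). In each subunit control replicate 2 was the lowest control library and still lay above every knockdown library.

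The transcripts of the standard subunits that these replace moved less, and the ratios of immunoproteasome to standard subunit mRNA were lower after knockdown. Psmb5, Psmb6, and Psmb7 had log2 fold changes of -0.21 (adjusted p = 0.00323, edgeR), -0.14 (adjusted p = 0.0364), and -0.17 (adjusted p = 0.00699). The call of Psmb6 did not pass under 7 of 15 other settings. Per kb of exon, the ratio of Psmb8 to Psmb5 was 0.511, 0.598, 0.684, and 0.649 in controls and 0.296, 0.338, 0.382, and 0.324 after knockdown. The ratio of Psmb9 to Psmb6 was 0.316, 0.382, 0.451, and 0.446 in controls and 0.186, 0.191, 0.221, and 0.178 after knockdown, and that of Psmb10 to Psmb7 was 2.5, 3.11, 3.57, and 3.41 in controls and 1.28, 1.37, 1.68, and 1.35 after knockdown. None of the 3 ratios overlapped between groups. On the log2 scale they differed by -0.86, -1.03, and -1.14, each with an exact permutation p of 0.0286 (two-sided, adjusted p = 0.0286 over the 3 ratios), the smallest that the 70 arrangements of the libraries allow.

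**Figure D3:**
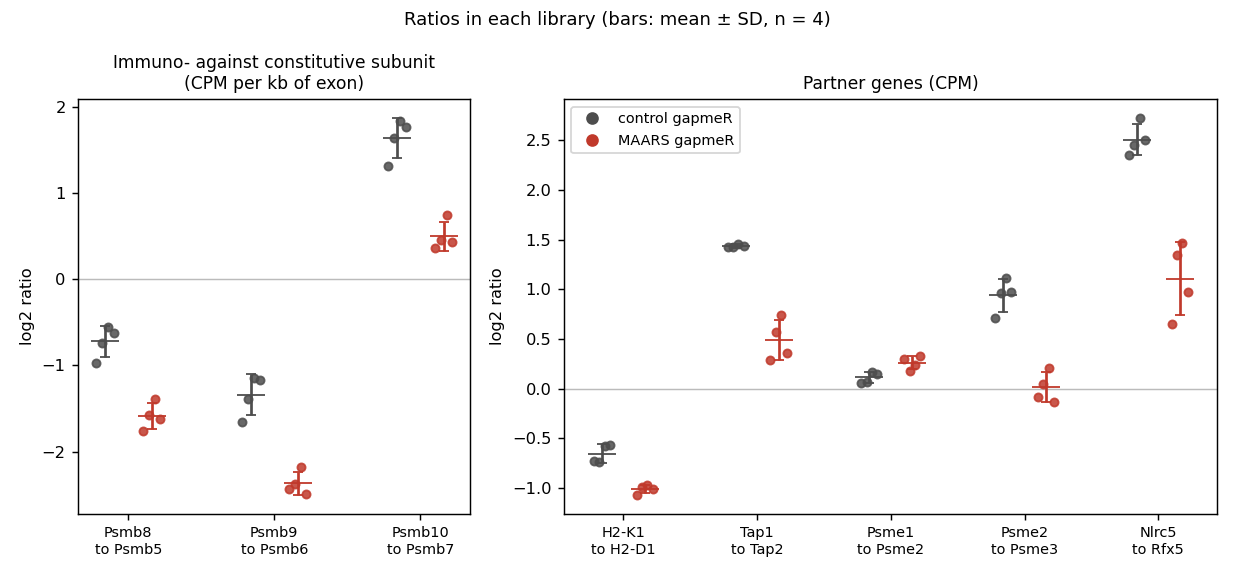
Log2 ratios in each control gapmeR (grey) and MAARS gapmeR (red) library, with the mean and SD of 4 libraries a group: immunoproteasome to standard subunit, in CPM per kb of exon (left), and pairs of partner genes, in CPM (right). The groups do not overlap in any of the 8 ratios, and the knockdown libraries are lower in all but Psme1 to Psme2. The pairs of partner genes were chosen after the values were seen.

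The proteasome activator PA28 opens the gate of the proteasome. Psme1 and Psme2, which form the cytoplasmic activator, lie near each other on chromosome 14 and fell together. Psme1 was counted at 198.9, 222.1, 263.6, and 250.1 CPM in controls and at 107.5, 116.2, 132.5, and 117.1 CPM after knockdown (log2 fold change -0.98, SE 0.0885, adjusted p = 1.04e-05, edgeR). Psme2 stood at 191.0, 211.2, 234.9, and 224.7 CPM in controls and at 87.6, 102.6, 111.9, and 93.2 CPM after knockdown (log2 fold change -1.12, SE 0.0824, adjusted p = 5.27e-06, edgeR). Both sets of libraries were apart, and 18.4% of the 100-base stretches of Psme2 are shared with the copy Psme2b. Psme3, which forms a separate nuclear activator, moved little, from 112.1 ± 4.1 to 97.4 ± 3.9 CPM, but passed the test (log2 fold change -0.20, SE 0.0461, adjusted p = 0.00432, edgeR). The log2 ratio of Psme2 to Psme3 fell from 0.94 ± 0.166 to 0.02 ± 0.153, a difference of -0.92 (exact permutation p = 0.0286, adjusted p = 0.0286 over 5 pairs). The log2 ratio of Psme1 to Psme2 was 0.11 ± 0.0551 in controls and 0.26 ± 0.0655 after knockdown, a difference of 0.15 (exact permutation p = 0.0286, adjusted p = 0.0286 over 5 pairs). With each control library left out in turn this difference was 0.13 to 0.17, still without overlap between groups, and its exact permutation adjusted p was 0.0571. Both of these pairs were chosen after the values were seen, so their p-values are a description only.

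Of the class I transcription factors, Nlrc5 alone was called. Nlrc5 (ENSMUSG00000074151, chromosome 8, 94434356 to 94527272, plus strand) was counted at 70.6, 73.7, 89.8, and 79.8 CPM in controls and at 24.9, 36, 39.2, and 28.5 CPM after knockdown. The groups did not overlap, and it fell by 59% (log2 fold change -1.29, SE 0.128, adjusted p = 1.8e-05, edgeR). Its DNA-binding partners of the RFX complex were at low levels in both groups. Rfx5 stood at 13.5 to 14.1 CPM in controls and 14.2 to 15.9 CPM after knockdown (log2 fold change 0.09, SE 0.0702, adjusted p = 0.307, edgeR). Rfxap had a log2 fold change of -0.03 (SE 0.0767, adjusted p = 0.797) and Rfxank of -0.22 (SE 0.0965, adjusted p = 0.0881). The log2 ratio of Nlrc5 to Rfx5 was 2.35 to 2.72 in controls and 0.65 to 1.47 after knockdown, a difference of -1.40 (exact permutation p = 0.0286, adjusted p = 0.0286 over 5 pairs). This pair was chosen after the values were seen, so its p is a description only.

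The libraries kept a common order within each group. Among the 24 members called lower, control replicate 2 was the lowest control library in 21 and control replicate 6 the highest in 20. MAARS gapmeR replicate 9 was the lowest knockdown library in 23 and replicate 13 the highest in 21. The members therefore did not vary independently of each other from library to library, and their count is not a count of independent observations.

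Position and call went together in part among the members. On chromosome 17, 16 members lie from Tapbp to H2-M3 (33915899 to 37274484), in the mouse MHC. All 16 were called lower, beside 24% of all genes tested. The bounds are those of members, which were chosen for their role in class I presentation. Other genes of the region were not counted, so an effect of position was not tested. Within it Psmb9, Tap1, Psmb8, and Tap2 occupy 34.3 kb (34181987 to 34216321). The 17 members elsewhere held the other 8 called lower: B2m, Tapbpl, Erap1, Psmb10, Psme1, Psme2, Psme3, and Nlrc5. Exons of some members overlap a gene on the opposite strand. The overlap covers 33.8% of exon bases in Rfxank, 29.4% in H2-T22, 27.1% in H2-T10, 26.8% in Rfx5, and 24.9% in Tapbp. It covers 19.1% in H2-Q4, 18.5% in Tap2, 14.7% in Psmb8, and 11.5% in Erap1. Smaller overlaps include 5.79% in Psmb9 and 3.87% in Tap1, which overlap each other. The strand setting of the counting is not given in the sources used here, so reads of those stretches cannot be assigned with certainty.

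The promoter letters shown above were counted over 26 members with a RefSeq window, 19 called lower and 7 not called, and over 27025 promoters in all. H2-T10, H2-T24, Cd1d1, Tap2, Tapbpl, Nlrc5, and Rfxap had no window. Some windows lie wholly inside the GENCODE gene, so bases before its start were not read. Examples are Tapbp (window 33919228 to 33919527, gene from 33915899) and Psmb8 (window 34197945 to 34198244, gene from 34197721). GAAANNGAA occurred on either strand in 5 of the 19 lower members, 0 of the 7 others, and 8.58% of all promoters. GAANNGAAA, a spacing added after the promoters had been read, occurred in 8 of 19, 0 of 7, and 7.56%, and either spacing in 12 of 19, 0 of 7, and 14.9%. The kappaB-like GGGANNNCC was found in 7 of 19, 1 of 7, and 18.2%, and the GAS letters TTCNNNGAA in 2 of 19 (Psmb8 and H2-M3), 0 of 7, and 8.42%. TGACG, part of the X2 box, was found in 11 of 19, 3 of 7, and 20.9%, and CCAAT in 13 of 19, 4 of 7, and 38%. The heavy chain genes share ancestry, so their matches are not separate observations, and a match of letters is a description of the window only. Psmb10 held none of the letters searched.

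**Figure D4:**
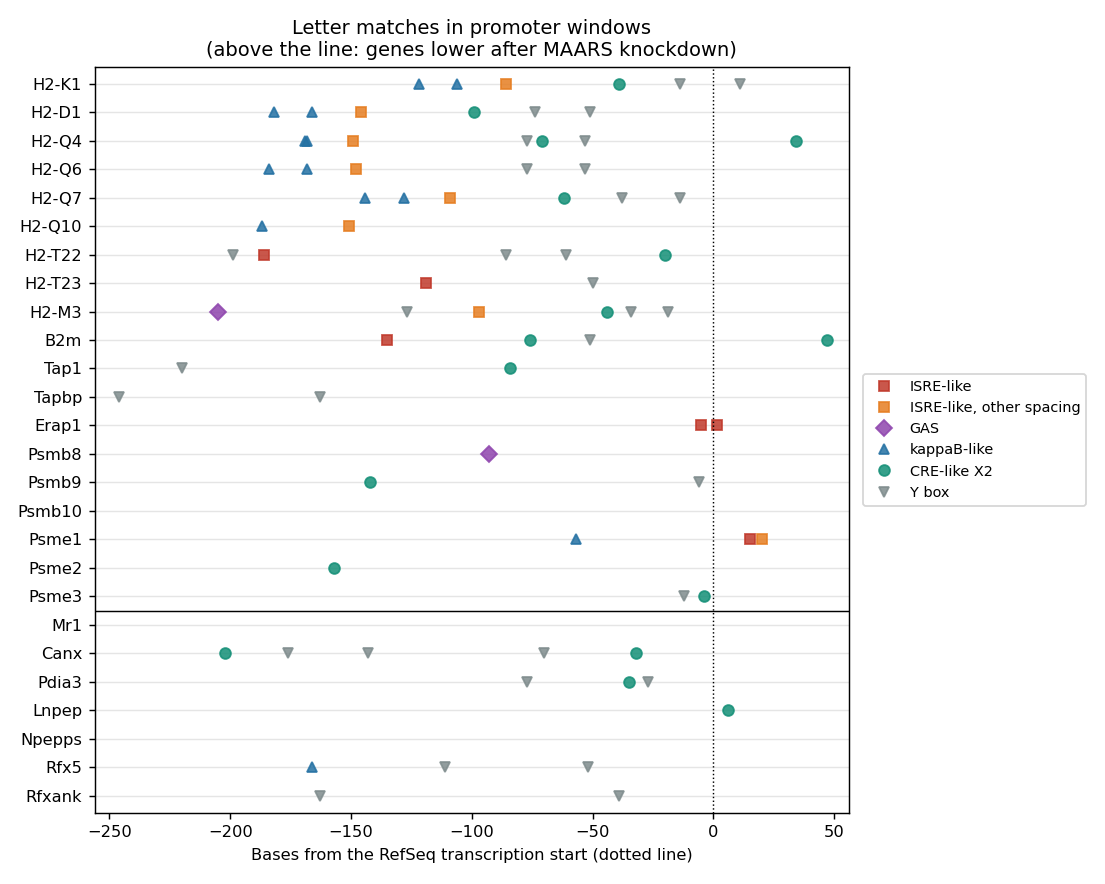
Positions of letter matches on either strand in the promoter windows of 26 members, in bases from the RefSeq start (dotted line); the 19 genes above the solid line were lower after MAARS knockdown and the 7 below it were not called. Matches of either interferon-type spacing appear in 12 of the genes above the line, in 0 below it, and in 14.9% of all promoters. The spacing GAANNGAAA was added after the promoters had been read, and heavy chain genes that share ancestry are not separate observations.

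Other genes of the pathway were listed for context, and 56 of 66 were tested, with 25 lower (44.6%, beside 24% of all genes tested) and 10 higher (17.9%, beside 21.3%). Among the 12 listed regulators upstream of class I transcription, 6 were lower (50%) and 1 higher (8.33%). Stat2, a transcription factor of the type I interferon response, was counted at 340.2, 396.7, 461.9, and 421.1 CPM in controls and at 108.4, 153.1, 178.2, and 126.5 CPM after knockdown (log2 fold change -1.52, SE 0.139, adjusted p = 1.12e-05, edgeR). Its groups did not overlap, and control replicate 2 and MAARS gapmeR replicate 9 were the lowest of their groups, as in most lower members. Irf1, which binds class I promoters, fell by 0.68 on the log2 scale (SE 0.113, adjusted p = 0.00056, edgeR).

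Of 16 further class I and class I-like heavy chains tested, 8 were lower (50%, beside 24% of all genes tested) and 3 higher (18.8%, below the 21.3% of all genes tested). Gm11127 and H2-Q1 had log2 fold changes of -1.22 and -0.86 (adjusted p = 6.49e-06 and 5.42e-05, edgeR). The 3 that were higher, named here after their values were seen, were Fcgrt, the neonatal Fc receptor (1.07, adjusted p = 9.13e-05), Ulbp1, an NKG2D ligand (1.03, adjusted p = 0.000154), and Hfe, the hemochromatosis protein of iron uptake (0.27, adjusted p = 0.0213, edgeR). Hfe did not pass without MAARS gapmeR replicate 9 (0.23, adjusted p = 0.0617) or 13 (0.24, adjusted p = 0.0595).

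The shares of the next lists stand beside 24% lower and 21.3% higher over all genes tested. In the quality control list of the endoplasmic reticulum, 1 of 6 genes was lower (16.7%) and 3 were higher (50%). Calr, the calreticulin of the loading complex, fell by 0.22 on the log2 scale (adjusted p = 0.0046, edgeR), while Uggt1, which recognizes misfolded glycoproteins and suboptimally loaded class I, rose by 0.86 (adjusted p = 6.49e-06) and Ganab, a glucosidase subunit, by 0.26 (adjusted p = 0.00203). Of 6 standard proteasome genes 5 were lower (83.3%), all by less than 1, among them Pomp, the assembly factor (-0.31, adjusted p = 0.000182), and Psme4, the activator PA200 (-0.35, adjusted p = 0.000775). Of 7 cytosolic peptidases 2 (28.6%) were lower, Lap3 among them (-0.30, adjusted p = 0.00082), and 1 (14.3%) was higher, Blmh (0.46, adjusted p = 0.000272). For a list this short, these shares are near those of all genes tested. Of 9 genes of cross-presentation and trafficking 3 were lower (33.3%) and 2 higher (22.2%), shares near those of all genes tested, with Cybb, the phagosomal NADPH oxidase subunit, at -0.45 (adjusted p = 0.00077) and Stx4a, a membrane fusion protein, at -0.28 (adjusted p = 0.00017, edgeR).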

How the data were processed

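Per the study's methods and labels, reads were trimmed, mapped to the mouse genome (GRCm38) by STAR, and summed per gene by featureCounts. The submitters' processing notes name Trimmomatic 0.36, STAR 2.5.2b, and Subread 1.5.2. The deposited values are the authors' raw counts, with no scaling. How strand and multi-mapped reads were handled is not given in the sources used here. Gene IDs were matched to GENCODE M21 (99.47% of 49315 found).

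Genes were kept with edgeR's filterByExpr (minimum count 10, minimum total 15), scaled by TMM, and tested with the quasi-likelihood F-test (edgeR 4.0.16, R 4.3.3), two-sided, with Benjamini-Hochberg adjustment over 13051 genes and a threshold of 0.05. CPM are TMM-scaled counts per 1000000, and levels per length divide them by the kb of exon. The fit was also run on simulated counts with far fewer changed genes than were called here. That run therefore does not check the scaling when so many genes change. Ratios were tested by exact permutation over libraries. Alternatives used limma 3.58.1 and DESeq2 1.42.0, which the study used, other scalings, filters, thinned counts, and each library left out. Replicates of a group differed by more than sampling noise (chi-square per gene 4.24 to 15.1). Library totals ran from 19287279 to 24541205 counts.

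The members and gene lists were chosen with earlier results of these data known. Every member was named, Gm14461, a fixed set of context genes (Psmb5, Psmb6, Psmb7, Irf1, and Calr among them), and from each other list the 2 with the smallest p. Fcgrt, Ulbp1, Hfe, and 5 gene pairs were added after their values were seen. Some genes that the rule covers are not reported here.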

Additional observations from a re-analysis of the deposited data

Results flagged for a closer look

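In 8 of the 132 groups of 4 values examined, 1 library stood apart from the other 3 by Dixon's criterion, and chance alone gives this in about 1 in 20 groups. Among the members, MAARS gapmeR replicate 13 was low for Cd1d1 (10.6 CPM, the others 11.9 to 12.1 CPM) and high for Pdia3 (773.3 CPM, the others 737.9 to 743.3 CPM) and Psmb9 (51 CPM, the others 39 to 41.1 CPM), and control replicate 7 was low for Rfxank (8.55 CPM, the others 9.63 to 9.73 CPM). Among the other genes of the pathway, control replicate 7 was low for Psmb6 (115.7 CPM, the others 125.7 to 127.5 CPM), MAARS gapmeR replicate 13 was low for Psmb7 (91 CPM, the others 97.6 to 98.6 CPM), replicate 11 was high for Ganab (216.1 CPM, the others 202.3 to 204.2 CPM), and replicate 9 was low for Gm11127 (22.9 CPM, the others 26.4 to 26.8 CPM).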

How the results depend on the processing

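Across 15 alternatives, 24 to 25 members were called lower, 16 to 19 of them by at least 1 on the log2 scale, and no member lost its call. Among all genes, 2379 of 13051 were lower with upper-quartile scaling, 3016 of 24350 with no filter, and 3148 of 13051 with limma-voom. With each library left out in turn the count of members called lower was 24 throughout, beside 2774 to 3032 of the 13174 to 13265 genes tested. Of 495 member values under the alternatives, 489 kept their direction and side of the threshold. Upper-quartile scaling, which made 60.4% of all calls higher against 47% in the main scaling, raised the members called higher from 1 to 3 by adding Canx (0.16, adjusted p = 0.0137, edgeR) and Npepps (0.14, adjusted p = 0.0156). Thinning to the smallest total brought Mr1 past the threshold (-0.14, adjusted p = 0.0462). Members near 0 changed sign: Rfxap with upper-quartile scaling (0.04) and without control replicate 7 (0.03, from -0.06 to 0.03 over the libraries left out), and Pdia3 without control replicate 7 (-0.00). Psmb6 did not pass in 7 alternatives (adjusted p = 0.0661 without control replicate 6, for example) and Psmb7 not with upper-quartile scaling (-0.10, adjusted p = 0.0578). For these changes the cause was not tested. No paired analysis was possible because the groups share no replicate numbers. The smallest count of a member was 43, for H2-Q7 in MAARS gapmeR replicate 9.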
